A study of Homo sapiens with 6 samples.

Results

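The transcription factors described here set the balance between the epithelial state and epithelial-to-mesenchymal transition (EMT), the loss of cell-cell junctions and gain of motile, matrix-producing traits. They are 10 genes: SNAI1, SNAI2, ZEB1, ZEB2 and TWIST1, known as inducers of EMT, and GRHL1, GRHL2, OVOL1, ELF3 and EHF, known to maintain epithelial gene expression. They were taken by gene symbol from the deposited table of 57150 genes, where each symbol has 1 row. The libraries hold polyadenylated RNA of H358, an epithelial cell line established from a human lung carcinoma of the non-small-cell type. In the RBM47 knockdown group, lentiviral short hairpin RNAs were used against RBM47, the gene of an RNA-binding protein, and the other group is labelled a control knockdown. Each group has 3 libraries, biological triplicates by the series design, and both groups are of the same cell line. The hairpins, what the control cells received, whether the cells were a pool or a clone, and the time after infection are not stated in the labels.

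EMT inducers of the Snail and ZEB families are zinc-finger repressors that bind E-box sequences in promoters of epithelial genes such as CDH1, the gene of E-cadherin, and TWIST1 is a basic helix-loop-helix factor that acts on the same programme. Grainyhead-like factors (GRHL) and the Ovo-like zinc-finger proteins work against them: GRHL2 sustains junction genes, and both GRHL2 and OVOL1 are known to hold ZEB1 down in epithelia. ELF3 and EHF are ETS factors of epithelial cells. Since some of these factors repress others, one member's level is often read against another's.

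In RBM47 knockdown cells SNAI1 rose, to 1.96 times its control level, and ELF3 fell, to 90.2% of its control level. ELF3 no longer passed the test whichever 1 of the 6 libraries was left out. Among such fits, SNAI1 failed to pass only without RBM47 knockdown replicate 2. SNAI2, ZEB1, ZEB2, TWIST1, GRHL1, GRHL2, OVOL1 and EHF did not pass the test or could not be tested. EHF, at 82.1% of its control level, came closest of these to passing (limma, adjusted p = 0.0559). Levels are FPKM, by definition fragments scaled to transcript length and to the number of mapped fragments. They can be set side by side between genes, but how the libraries were scaled to each other is not stated in the labels. Genes averaging 1 FPKM or more across all 6 libraries entered the test, limma on log2(FPKM + 1), and a gene counts as called at a Benjamini-Hochberg adjusted p under 0.05 over all 14419 genes tested. Of the 10 members, 7 reached that level. SNAI1 was called higher, ELF3 was called lower, and the other 5 tested members were not called. Over all tested genes, 5.10% were called higher and 6.34% lower, 11.4% in either direction. In 5 of the 10 members (SNAI1, SNAI2, GRHL2, ELF3 and EHF) the 3 knockdown values did not overlap the 3 control values, which held for 34.0% of all tested genes. For each of these 5, an exact permutation test (two-sided) returned p = 0.1, the smallest value that 3 against 3 libraries allow.

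**Figure D1:**
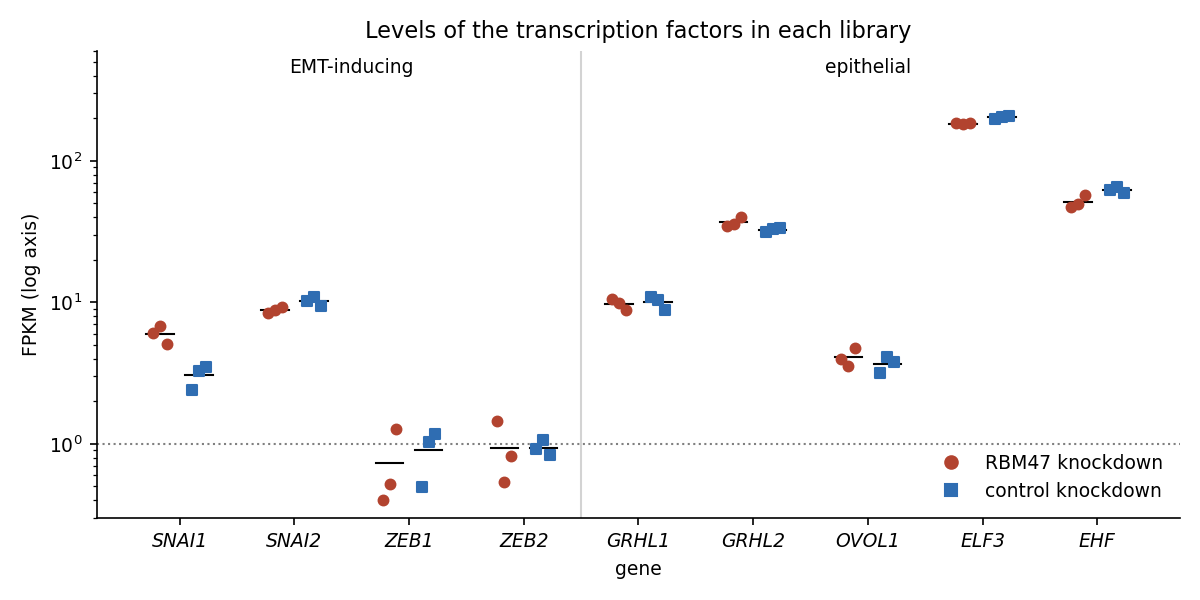
FPKM of 9 members in each library on a log axis, with the group mean as a bar and a dotted line at 1 FPKM; TWIST1, listed at 0 throughout, is not drawn. SNAI1 knockdown points (5.06 to 6.81 FPKM) lie above its control points (2.40 to 3.47 FPKM), and the epithelial factors ELF3, EHF and GRHL2 are the most abundant in both groups.

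RBM47 was at 12.01, 13.4 and 13.5 FPKM after its knockdown and at 85.2, 92.4 and 87.9 FPKM in control libraries, 14.6% of the control level (means of 12.9 ± 0.813 FPKM in knockdown and 88.5 ± 3.64 FPKM in control libraries, SD, n = 3 each). Total FPKM ran from 651951 to 673552. The number of fragments is unknown, but its relative size could be read from the lowest nonzero values: set to 1 in RBM47 knockdown replicate 1, it was up to 1.05 in the knockdown and 1.08 to 1.16 in the control libraries. Each control library was thus deeper than each knockdown library. Of 6 epithelial markers 5 were called lower and none higher, with summed levels of 3032 to 3107 FPKM in knockdown and 3627 to 3889 FPKM in control libraries. Over all tested genes, 6.34% were called lower. The count of these markers called lower was 3 with RBM47 knockdown replicate 2 or control replicate 2 omitted. EPCAM was not called (log2 fold change -0.12, limma, adjusted p = 0.114). CDH1, KRT18 and EPCAM are also among the Snail and ZEB repression targets described below. Fibroblast markers summed to 27.4 to 35.6 FPKM in knockdown and 32.7 to 36.3 FPKM in control libraries, nearly all of it LUM and COL1A1, with THY1 at 0 and 2 of 8 genes tested and none called. Endothelial markers summed to 1.52 to 1.78 and 1.96 to 2.37 FPKM in the same order. Leukocyte markers summed to 24.6 to 32.6 FPKM in knockdown and 32.8 to 36.3 FPKM in control libraries, mostly CD68, with CD2 and MS4A1 at 0. Of the lung lineage markers, NKX2-1 lay at 13.9 to 16.4 FPKM over all 6 libraries, while SFTPB, SFTPA1 and SCGB1A1 were at 0. The part of depth and of these markers in the members' differences was not tested. In bulk RNA, fewer cells expressing a gene and less of its RNA per cell cannot be told apart.

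Among the inducers, SNAI1 (ENSG00000124216; chromosome 20, 48599536 to 48605423, hg19), a repressor of CDH1, was at 6.06, 6.81 and 5.06 FPKM in RBM47 knockdown libraries and at 2.40, 3.29 and 3.47 FPKM in the control libraries. Every knockdown library was above every control library, with the lowest knockdown value 1.59 FPKM above the highest control value. The means were 5.98 ± 0.880 FPKM in knockdown and 3.05 ± 0.572 FPKM in control libraries (SD, n = 3 each), a ratio of 1.96. On the log2(FPKM + 1) scale SNAI1 rose by 0.79 (SE 0.14, 95% interval 0.46 to 1.11, limma, adjusted p = 0.0137). That scale compresses low values: with a pseudocount of 0.1 in place of 1 the log2 fold change was 0.95. Without RBM47 knockdown replicate 2, the library with the highest SNAI1, the change was 0.70 and no longer passed (limma, adjusted p = 0.0532), and the other 5 fits that left out 1 library kept the call (adjusted p = 0.0175 to 0.043). The call was also lost with no filter on low values, when 26591 genes were tested (adjusted p = 0.054).

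SNAI2, its closest relative among the members (ENSG00000019549; chromosome 8, 49830249 to 49834299), lay on the other side. It was at 8.40, 8.89 and 9.29 FPKM in knockdown libraries and at 10.3, 10.9 and 9.48 FPKM in control libraries. The groups did not overlap, but the gap between the nearest libraries was only 0.197 FPKM. The log2 fold change was -0.18 (95% interval -0.36 to -0.01, limma, unadjusted p = 0.0399, adjusted p = 0.154). The ratio of SNAI1 to SNAI2 within each library, which a single scaling factor per library cannot move, was 0.722, 0.766 and 0.544 in knockdown and 0.234, 0.302 and 0.366 in control libraries. SNAI2 remained the more abundant of the 2 in all 6 libraries, by less in the knockdown. The log2 ratio differed by 1.18. With SNAI1 higher and SNAI2 lower in each knockdown library, the ratios could not overlap. The exact two-sided permutation test could thus only return p = 0.1, which adds nothing to the separate values. This pair was chosen after its values were seen.

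**Figure D2:**
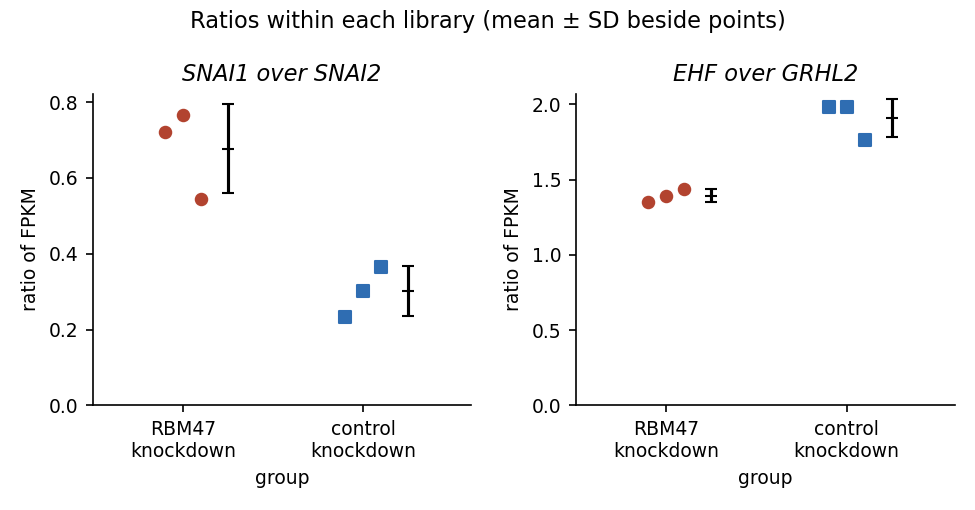
Ratio of FPKM of SNAI1 to SNAI2 (left) and of EHF to GRHL2 (right) within each library, with mean ± SD of the 3 libraries beside the points. The knockdown libraries average 0.677 against 0.301 in control libraries for the first pair, and 1.39 against 1.91 for the second.

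ZEB1 and ZEB2, zinc-finger homeobox repressors of epithelial genes, lay under the level that was tested. ZEB1 (ENSG00000148516; chromosome 10, 31596646 to 31818742) was at 0.403, 0.517 and 1.27 FPKM in RBM47 knockdown libraries and at 0.492, 1.04 and 1.17 FPKM in the control libraries. The 2 groups overlapped over most of their range, with the highest of all 6 values in RBM47 knockdown replicate 3. ZEB2 (ENSG00000169554; chromosome 2, 145145568 to 145282147) was at 1.46, 0.539 and 0.821 FPKM in knockdown libraries and at 0.924, 1.06 and 0.836 FPKM in control libraries. Its highest and its lowest value were both in knockdown libraries, and its group means were 0.939 ± 0.470 and 0.940 ± 0.113 FPKM (SD, n = 3 each). In the fit without a filter the log2 fold changes were -0.15 for ZEB1 (95% interval -0.72 to 0.42, limma, adjusted p = 0.779) and -0.03 for ZEB2 (-0.47 to 0.42, adjusted p = 0.968). These intervals are wide, so a change of either gene of the size seen for SNAI2 was not detectable here. The table gives ZEB1 a locus shared with ZEB1-AS1, a transcript named as antisense to it, which was at 3.98, 2.86 and 2.21 FPKM in knockdown libraries and at 2.38, 3.98 and 3.56 FPKM in control libraries, above ZEB1 in each library. The labels do not say whether strand was used in counting, so reads of the 2 genes may be mixed. TWIST1 (ENSG00000122691) was listed at 0 in all 6 libraries, as was its relative TWIST2.

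Among the epithelial factors, ELF3 (ENSG00000163435; chromosome 1, a locus of 4 genes from 201951500 to 201986316) was the most abundant member and the one called lower. It was at 184, 182 and 184 FPKM in RBM47 knockdown libraries and at 198, 205 and 207 FPKM in the control libraries. All 3 knockdown libraries lay within 2.11 FPKM of each other and below every control library. The means were 183 ± 1.16 FPKM in knockdown and 203 ± 4.60 FPKM in control libraries (SD, n = 3 each), which left 90.2% of the control level. The log2 fold change was -0.15 (SE 0.04, 95% interval -0.24 to -0.06, limma, adjusted p = 0.0447). This call is a narrow one: it was lost whichever 1 of the 6 libraries was left out (adjusted p = 0.0559 to 0.145), with the change between -0.17 and -0.14, and with every library scaled to the same total FPKM (0.0559) or the same upper quartile (0.0517). With quantile normalization the change was -0.08 (adjusted p = 0.131). RP11-465N4.4, an unnamed gene that shares the locus, also fell (3.997 ± 1.11 FPKM in knockdown and 7.07 ± 1.10 FPKM in control libraries, SD, n = 3 each, log2 fold change -0.71, limma, adjusted p = 0.0459), while RNPEP in the same locus had -0.06 (adjusted p = 0.533). With strand use unstated, reads of ELF3 and RP11-465N4.4 may be mixed as well, so their values may not be independent.

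EHF (ENSG00000135373; chromosome 11, 34642640 to 34682604), the second ETS factor, was at 46.8, 49.5 and 57.3 FPKM in knockdown libraries and at 62.5, 65.3 and 59.4 FPKM in control libraries. Its knockdown values were all below its control values, with RBM47 knockdown replicate 3 nearest to them. The means were 51.2 ± 5.47 FPKM in knockdown and 62.4 ± 2.90 FPKM in control libraries (SD, n = 3 each), which left 82.1% of the control level. The log2 fold change was -0.28 (95% interval -0.46 to -0.10) and missed the threshold (limma, adjusted p = 0.0559). Without RBM47 knockdown replicate 3 it was -0.37 and passed (adjusted p = 0.0153), and in the other 5 such fits it did not (0.0951 to 0.155).

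ELF3 and EHF, the 2 epithelial factors that were lower in each knockdown library than in any control library, were picked for that direction. The promoter windows that RefSeq (GRCh38.p14) gives for both genes are shown with the word CACCTG in capitals. It is an E-box that Snail factors are known to bind. Whether a Snail factor acts on either gene in these cells was not tested. Each window runs from 250 bases before a transcript start to 50 bases from it, on the plus strand, chr1:202010337-202010636 for ELF3 and chr11:34624007-34624306 and chr11:34632316-34632615 for EHF.
ELF3: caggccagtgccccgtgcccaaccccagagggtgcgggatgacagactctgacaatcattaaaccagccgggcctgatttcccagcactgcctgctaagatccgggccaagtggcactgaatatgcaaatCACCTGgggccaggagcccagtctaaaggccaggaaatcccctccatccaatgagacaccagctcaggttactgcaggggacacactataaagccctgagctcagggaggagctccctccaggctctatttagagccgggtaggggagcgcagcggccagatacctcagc
EHF, first start: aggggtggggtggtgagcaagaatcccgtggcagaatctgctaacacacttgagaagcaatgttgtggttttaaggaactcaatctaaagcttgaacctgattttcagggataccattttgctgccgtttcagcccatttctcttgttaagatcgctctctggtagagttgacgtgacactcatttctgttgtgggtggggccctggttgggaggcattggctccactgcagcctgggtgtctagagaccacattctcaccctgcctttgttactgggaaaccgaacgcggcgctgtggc
EHF, second start: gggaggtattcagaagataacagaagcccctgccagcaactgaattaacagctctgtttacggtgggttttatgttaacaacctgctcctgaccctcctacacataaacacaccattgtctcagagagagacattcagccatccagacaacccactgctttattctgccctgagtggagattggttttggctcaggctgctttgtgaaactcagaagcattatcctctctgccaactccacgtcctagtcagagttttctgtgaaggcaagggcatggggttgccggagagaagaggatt
CACCTG was searched on both strands, so also as CAGGTG, and the 2 spellings cannot overlap. The ELF3 window holds it 1 time, beginning 120 bases before the start, and the EHF windows do not hold it. Of 35116 RefSeq promoter windows of 300 bases, 20.6% hold it. A match in such a window describes its letters and does not show binding. Windows were found for 5 members (ELF3, EHF, GRHL1, ZEB1 and ZEB2), and of the 7 windows of ZEB1, 2 hold the word.

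GRHL2 (ENSG00000083307; chromosome 8, a locus of 4 genes from 102473405 to 102681954), which sustains E-cadherin and claudin expression, was at 34.7, 35.5 and 39.9 FPKM in RBM47 knockdown libraries and at 31.5, 32.9 and 33.8 FPKM in the control libraries. It stood above control in all 3 knockdown libraries, the opposite direction to ELF3 and EHF, with a gap of 0.917 FPKM between the nearest libraries. The log2 fold change was 0.16 (95% interval 0.01 to 0.31, limma, unadjusted p = 0.0399, adjusted p = 0.154). Set against GRHL2 within each library, EHF was at a ratio of 1.35, 1.39 and 1.44 in knockdown and 1.98, 1.98 and 1.76 in control libraries, a pair chosen after its values were seen. The log2 ratio differed by -0.45, and all 3 knockdown ratios were below the control ratios. With EHF lower and GRHL2 higher in each knockdown library, the ratios could not overlap. The exact two-sided permutation test could thus only return p = 0.1, which adds nothing to the separate values.

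In GRHL1 and OVOL1 the groups overlapped. GRHL1 (ENSG00000134317; chromosome 2, 10085341 to 10142411), the relative of GRHL2, was at 10.5, 9.86 and 8.81 FPKM in knockdown libraries and at 10.98, 10.4 and 8.86 FPKM in control libraries. Its log2 fold change was -0.05 (95% interval -0.27 to 0.18, limma, adjusted p = 0.79). The sign turned to 0.02 without RBM47 knockdown replicate 3 and to 0.01 without control replicate 1. OVOL1 (ENSG00000172818; chromosome 11, 65554493 to 65564690), a repressor of ZEB1, was at 3.96, 3.54 and 4.80 FPKM in knockdown libraries and at 3.17, 4.14 and 3.76 FPKM in control libraries. Its log2 fold change was 0.12 (95% interval -0.18 to 0.41, limma, adjusted p = 0.582). Both intervals allow a change of either sign.

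**Figure D3:**
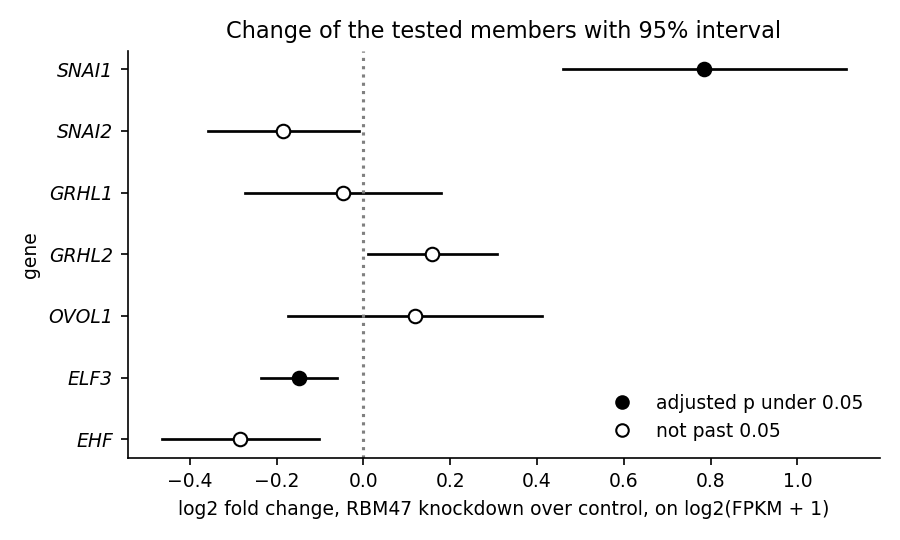
Log2 fold change of the 7 tested members, RBM47 knockdown over control on log2(FPKM + 1), with 95% intervals from limma; filled points passed an adjusted p of 0.05. SNAI1 (0.79) and ELF3 (-0.15) are filled, and SNAI2, GRHL2 and EHF have intervals that leave out 0 but did not pass after adjustment.

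The order of levels was nearly the same in both groups. In the knockdown it ran ELF3, EHF, GRHL2, GRHL1, SNAI2, SNAI1, OVOL1, ZEB2, ZEB1 and TWIST1. In control libraries SNAI2 and GRHL1 stood in the opposite order, as did OVOL1 and SNAI1. Neighbours that overlapped in the knockdown were GRHL1 with SNAI2 and ZEB2 with ZEB1. In the control group the same 2 pairs overlapped, and so did OVOL1 (3.17 to 4.14 FPKM) with SNAI1 (2.40 to 3.47 FPKM). SNAI1 thus stood clear of OVOL1 in knockdown libraries, where its lowest value was 5.06 FPKM and the highest of OVOL1 was 4.80 FPKM. Among all tested genes by mean level, 97.2% lay below ELF3, 87.4% below EHF, 78.4% below GRHL2, 42.7% below SNAI2 and 25.4% below SNAI1.

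**Figure D4:**
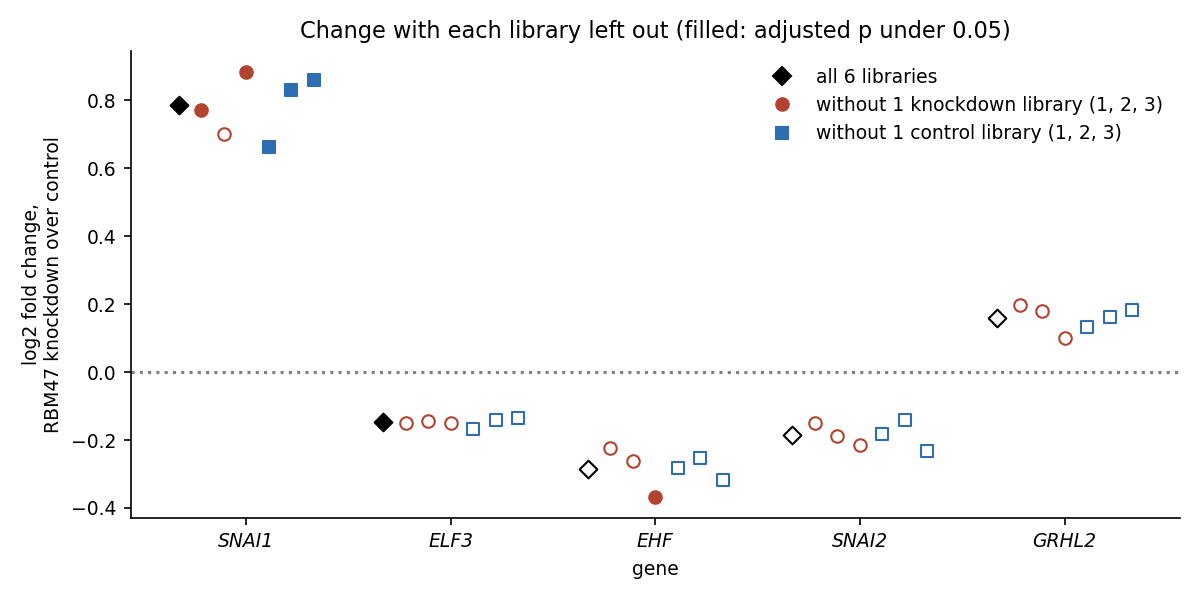
Log2 fold change (RBM47 knockdown over control) of 5 members in the fit of all 6 libraries and in the 6 fits that left out 1 library each; filled symbols have an adjusted p under 0.05. SNAI1 stays between 0.66 and 0.88, ELF3 loses its call in every such fit, and EHF gains one without RBM47 knockdown replicate 3.

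The genes whose levels followed SNAI1 most closely over the 6 libraries, by Pearson's r on log2(FPKM + 1), were ACTN1, the gene of an actin-crosslinking alpha-actinin (r = 0.998), IFFO2 (0.997) and SUPT3H (0.997). For ELF3 they were CHMP4B, a component of the membrane-remodelling ESCRT machinery (r = 0.998), MAGEA6 (0.997) and the kinase gene STK24 (0.997). With 6 libraries in 2 groups such values are common: 222 genes reached 0.95 with SNAI1 and 297 with ELF3. They describe these libraries and carry no test. ACTN1 averaged 37.0 ± 1.54 FPKM in knockdown and 30.8 ± 1.25 FPKM in control libraries (SD, n = 3 each), and STK24 69.1 ± 0.281 and 90.6 ± 5.62 FPKM in the same order.

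Genes that Snail and ZEB factors are known to repress were called lower in part. Of 26 such junction and epithelial genes, all of them tested, 8 were called lower, 1 higher and 17 did not pass, with a median log2 fold change of -0.05 against 0.01 over all tested genes. Members themselves make up 3 of the 26 (ELF3, GRHL2 and OVOL1), and without them 7 of 23 were called lower. The share called lower over all tested genes was 6.34%. This list and those below were chosen with earlier results of these data known, so their counts are descriptive. The tight junction claudins CLDN1 (36.7 ± 0.598 FPKM in knockdown and 57.1 ± 5.41 FPKM in control libraries, SD, n = 3 each) and CLDN3 (34.7 ± 3.05 and 46.6 ± 1.67 FPKM) fell by 0.62 and 0.42 on the log2 scale (limma, adjusted p = 0.00297 and 0.0104). Both calls held whichever 1 of the 6 libraries was left out. CDH1 was at 455 ± 25.4 FPKM in knockdown and 563 ± 22.7 FPKM in control libraries (log2 fold change -0.31, limma, adjusted p = 0.0126), a call that ended when RBM47 knockdown replicate 2 (0.0527) or control replicate 2 (0.0502) was omitted. RAB25, a GTPase of epithelial vesicle traffic, had -0.27 (adjusted p = 0.0153) and did not pass once RBM47 knockdown replicate 2 (0.0538) or control replicate 3 (0.0577) was omitted. The count called lower in this list was 4 to 7 with 1 library left out, at 4 without RBM47 knockdown replicate 2 and 5 without control replicates 2 or 3. Another claudin, CLDN4, picked after its values were seen, lay at 270 ± 12.8 FPKM in knockdown and 276 ± 10.3 FPKM in control libraries (adjusted p = 0.737).

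**Figure D5:**
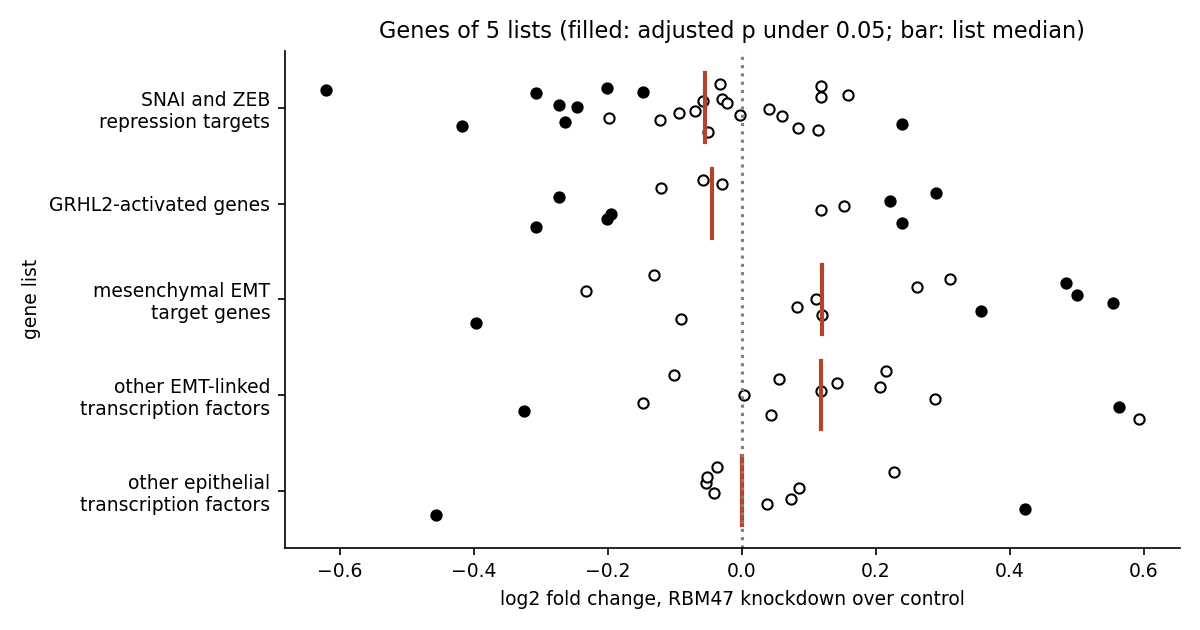
Log2 fold changes of the tested genes of 5 lists, RBM47 knockdown over control; filled points passed an adjusted p of 0.05 and the bar is the list median. Called genes lie mostly below 0 among repression targets (8 of 9), on both sides among GRHL2-activated genes (4 lower, 3 higher) and mostly above 0 among mesenchymal genes (4 of 5). Over all tested genes, 5.10% were called higher and 6.34% lower. The lists were chosen with earlier results of these data known.

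Genes that GRHL2 is known to activate split in both directions. Of 12, all tested, 3 were called higher, 4 lower and 5 did not pass, with a median of -0.04. CDH1 and RAB25, which the previous list also holds, were on the lower side. PROM2, the gene of prominin 2, was at 105 ± 9.44 FPKM in knockdown and 85.2 ± 3.23 FPKM in control libraries (SD, n = 3 each, log2 fold change 0.29, limma, adjusted p = 0.0366), and the membrane protease gene ST14 rose by 0.24 (0.0388). Both of these calls held, among fits of 5 libraries, only where RBM47 knockdown replicate 3 was absent (PROM2 0.01, and 0.0707 to 0.118 in the other 5; ST14 0.0183, and 0.0707 to 0.128). No gene of this list was called when RBM47 knockdown replicate 2 was omitted, and 3 were called in each direction when replicate 3 was.

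Mesenchymal genes that accompany EMT were higher in part. Of 21, 13 were tested, of which 4 were called higher, 1 lower and 8 did not pass, with a median of 0.12. TGFBI, a matrix protein gene induced by TGF-beta (599 ± 18.9 FPKM in knockdown and 408 ± 23.8 FPKM in control libraries, SD, n = 3 each), rose by 0.55 (limma, adjusted p = 0.00187), and the lysyl oxidase gene LOXL2 (26.97 ± 2.56 and 18.7 ± 1.48 FPKM) by 0.50 (0.0115). FN1, the gene of fibronectin, fell by 0.40 (145 ± 5.17 and 191 ± 8.53 FPKM, adjusted p = 0.00381). The calls of TGFBI, LOXL2 and FN1 held with each library left out. SPARC, a matrix glycoprotein gene, had 0.48 (adjusted p = 0.0487) and lost its call in each of these 6 fits (0.0798 to 0.124). VIM did not pass (67.2 ± 8.53 FPKM in knockdown and 61.4 ± 2.49 FPKM in control libraries, log2 fold change 0.12, limma, adjusted p = 0.418). Nor did CDH2, which leaned lower (7.44 ± 0.612 and 8.29 ± 1.26 FPKM, -0.13, adjusted p = 0.493). THY1 was listed at 0 in all 6 libraries, and PDGFRB was at most at 0.154 FPKM. VIM, CDH2, THY1 and PDGFRB were picked after their values were seen.

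Of 15 relatives of the members, 7 were tested and none was called, with 1 at an unadjusted p under 0.05 (limma). Over all 14419 tested genes, 4101 were at an unadjusted p under 0.05. The 2 most abundant were ELF1 (35.5 ± 0.732 FPKM in knockdown and 37.1 ± 1.69 FPKM in control libraries, SD, n = 3 each) and UBP1, at log2 fold changes of -0.06 and -0.02. OVOL2 lay at 6.75 ± 0.284 FPKM in knockdown and 7.42 ± 0.498 FPKM in control libraries, while SNAI3 and GRHL3 had means under 1 FPKM in both groups. OVOL2, SNAI3 and GRHL3 were picked after their values were seen.

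Of 19 further EMT-linked factors, 13 were tested, with 1 called higher and 1 lower and a median of 0.12. SOX4 fell by 0.33 (103 ± 1.404 FPKM in knockdown and 129 ± 3.10 FPKM in control libraries, SD, n = 3 each, limma, adjusted p = 0.00373). Of 13 further epithelial factors, 10 were tested, with 1 called higher and 1 lower and a median of 0.00. FOXA1, a forkhead factor of lung and other endodermal epithelia, fell by 0.46 (19.0 ± 0.555 FPKM in knockdown and 26.5 ± 0.680 FPKM in control libraries, adjusted p = 0.00298). TFAP2A had 0.42 (limma, adjusted p = 0.0453). Among the fits that left out 1 library, this call held only without RBM47 knockdown replicate 2 (0.0455) or control replicate 1 (0.044). In the other such fits the adjusted p lay at 0.111 to 0.136. SOX4 and FOXA1 kept their calls whichever library was left out.

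Of 15 corepressors that Snail or ZEB proteins recruit, 14 were tested, with 1 called higher, 1 lower and a median of 0.09. CTBP2, a corepressor of ZEB proteins, fell by 0.33 (28.0 ± 0.892 FPKM in knockdown and 35.4 ± 0.771 FPKM in control libraries, SD, n = 3 each, limma, adjusted p = 0.00702), which held with each library left out. EZH2, the histone methyltransferase of Polycomb, had 0.35 (adjusted p = 0.0208) and lost its call in 4 of 6 such fits (0.0532 to 0.0791, where replicate 2 or 3 of either group was omitted). Of 17 genes of SNAI1 protein turnover and localization, all tested, 2 were called lower, none higher and 15 did not pass, with a median of 0.01. They were PAK1 (-0.23, adjusted p = 0.0256), a kinase that phosphorylates SNAI1, and the deubiquitinase gene USP3 (-0.19, 0.0305). With 1 library omitted, PAK1 passed in the absence of RBM47 knockdown replicate 3 (0.0268, and 0.0514 to 0.0931 in the others), and USP3 in none of them (0.0547 to 0.112). GSK3B, whose kinase marks SNAI1 for destruction, lay at 27.2 ± 1.20 FPKM in knockdown and 28.9 ± 2.65 FPKM in control libraries (adjusted p = 0.538), and was picked after its values were seen. Hairpin genes of the miR-200 family and miR-205, repressors of ZEB1 and ZEB2, were listed at 0 in these polyadenylated RNA libraries. MIR205HG was at 10.6, 7.88 and 6.38 FPKM in knockdown and 10.1, 12.2 and 11.8 FPKM in control libraries (log2 fold change -0.43, adjusted p = 0.12), and the groups overlapped. It passed only without RBM47 knockdown replicate 1 (0.0318).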

How the data were processed

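The authors deposited 1 table of FPKM per gene and library. TopHat 1.4.1, Cuffdiff 2.2.0 and hg19 are named in the submitters' processing notes, while settings, scaling and strand use are not stated in the labels. Illumina stranded mRNA libraries were made from TRIzol RNA, per the labels' protocols. Loci are the table's (hg19), with starts counted from 1. FPKM are not counts, so no count test was run. Depth is unknown and only its relative size was estimated.

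The 14419 genes averaging 1 FPKM or more were tested with limma 3.58.1 (R 4.3.3), on log2(FPKM + 1) with a trended prior and both groups in 1 fit, and steps were tested on simulated data. A fold change on this scale understates that of low genes. Members and lists were chosen with earlier results of these data known. Beside the members and RBM47, each list contributed up to 4 called genes with the largest absolute change, or its 2 most abundant tested genes where none was called, and each called member its 3 closest genes by Pearson's r. TBXT and PATJ were matched by Ensembl identifier, and PECAM1 was not analysed here. For 1 gene that the naming rule selects, the result is not reported here. Alternatives were a pseudocount of 0.1 or 0.5, the filter dropped or raised to 5 FPKM, 3 scalings, limma without trend or with array weights, a replicate block, repeated symbols summed, and each library left out. Figures used matplotlib 3.10.9 (Python 3.11.15).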

Additional observations from a re-analysis of the deposited data

How the results depend on the processing

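SNAI1 was called in 14 of 16 alternatives, ELF3 in 5 of 17 and EHF in 3 of 17, each without a change of sign, and SNAI2, GRHL2, GRHL1 and OVOL1 were called in none. The number of members called was 2 with all libraries and 1 with the same total FPKM, the same upper quartile, quantile normalization and limma without trend, where SNAI1 was the one kept. It was 0 with no filter, when 916 genes in all were called against 1650. With each library left out, the count of members ran from 0 to 2 and that of all genes from 679 to 1288, both lowest in the absence of RBM47 knockdown replicate 2 and highest in that of replicate 3. SNAI1 lies under a mean of 5 FPKM, so that filter gave it no value, and EHF was then called (limma, adjusted p = 0.0426), as with array weights (0.025).

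Libraries of the same replicate number shared little deviation from their group means (correlations 0.02, -0.10 and 0.08). With 3 libraries per group, this cannot tell whether the replicate number marks samples prepared as a pair. With the number as a replicate block, 837 genes and 1 member, SNAI1, were called (adjusted p = 0.0324). RBM47 was called in every fit.

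Signs turned in 8 cases, none of a called value. GRHL1 ran from -0.130 to 0.0154 with 1 library left out, above 0 in the absence of RBM47 knockdown replicate 3 or control replicate 1. UBP1 was at 0.00669 with the same total FPKM and ran from -0.0517 to 0.0159 with 1 library left out. LUM was at 0.00106 with the same total FPKM and 0.0336 with array weights, and ran from -0.116 to 0.123 with 1 library left out. List medians moved by more than the spread between replicates in 20 cases and by less in 133. Fewer libraries also lower the number of calls by themselves. Fragment depth sets how low a level can be read, which limits ZEB1, ZEB2 and TWIST1.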
